A study of Mus musculus with 24 samples.

Results

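The collagen genes are the 31 genes of 16821 in the deposited table of normalized counts whose symbol is Col, a number, the letter a and a number. Of these, 9 encode chains of fibrillar collagens, 7 encode chains found in or along basement membranes (types IV, XV and XVIII), and 15 encode other types. They were measured in the inguinal fat pad (IWAT, a white fat depot under the skin of the groin) by QuantSeq 3′ mRNA sequencing in 24 male mice of the strain C57BL6/J, 6 on each of 4 diets. The elemental MR diet gave protein as elemental amino acids with 0.17% methionine (MR stands for methionine restriction), and the elemental control diet gave elemental amino acids with 0.86% methionine. In the oxidized casein MR diet the methionine of casein was destroyed by oxidation and then restored to the 0.17% of the elemental MR diet, and the casein control diet held intact casein with 0.86% methionine. Mice went onto a diet at 5 weeks of age, ate it for 12 weeks and were 4 months old and fasted for 4 h when the tissue was taken. In the casein pair, oxidation of the protein and the low methionine level come together, so their effects cannot be told apart.

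Collagens are secreted proteins in which 3 chains wind into a triple helix. In the fibrillar types, such as I, III and V, trimers pack side by side into the fibers that give connective tissue its strength. Type IV chains form the sheet-like network of basement membranes, which surround each adipocyte and line the vessels of fat, while type VI forms beaded filaments that link cells to the fibers. In adipose tissue, fibroblasts and progenitor cells make much of the fibrillar collagen, and adipocytes and vascular cells contribute basement membrane chains.

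The promoters of 5 collagen genes are shown here because their transcripts moved apart under methionine restriction, as the values further on show: in the mean effect over both protein sources, adjusted for lymph node transcripts, Col3a1, Col5a1 and Col6a3 were lower, Col27a1 was higher and Col5a3 did not pass the test. Each line holds the 250 bases before the RefSeq gene start, on the strand of the gene, from assembly GRCm38.p6. Capitals mark exact matches, on either strand, to the CCAAT box (the letters CCAAT), to a TATA box (here TATAAA) or to a GC box (here GGGCGG), which reads CCGCCC where it lies on the opposite strand.
Col3a1: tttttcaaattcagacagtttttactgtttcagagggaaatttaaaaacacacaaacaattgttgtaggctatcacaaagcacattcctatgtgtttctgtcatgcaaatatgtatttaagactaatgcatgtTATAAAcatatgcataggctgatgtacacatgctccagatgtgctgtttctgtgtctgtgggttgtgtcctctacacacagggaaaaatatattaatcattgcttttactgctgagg
Col5a1: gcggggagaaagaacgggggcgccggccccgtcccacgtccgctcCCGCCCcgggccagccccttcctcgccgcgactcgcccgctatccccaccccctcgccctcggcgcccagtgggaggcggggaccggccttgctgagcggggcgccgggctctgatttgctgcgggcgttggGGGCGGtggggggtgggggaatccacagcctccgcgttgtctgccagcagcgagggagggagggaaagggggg
Col6a3: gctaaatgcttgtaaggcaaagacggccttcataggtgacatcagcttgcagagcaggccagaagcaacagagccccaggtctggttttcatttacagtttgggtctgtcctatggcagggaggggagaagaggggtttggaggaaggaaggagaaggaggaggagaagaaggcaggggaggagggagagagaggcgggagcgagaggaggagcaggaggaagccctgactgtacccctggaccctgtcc
Col5a3: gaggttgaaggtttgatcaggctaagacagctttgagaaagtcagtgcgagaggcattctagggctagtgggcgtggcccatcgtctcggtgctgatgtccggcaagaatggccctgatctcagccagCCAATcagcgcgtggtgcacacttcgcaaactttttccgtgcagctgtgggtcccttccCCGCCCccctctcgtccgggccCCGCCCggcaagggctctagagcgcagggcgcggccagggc
Col27a1: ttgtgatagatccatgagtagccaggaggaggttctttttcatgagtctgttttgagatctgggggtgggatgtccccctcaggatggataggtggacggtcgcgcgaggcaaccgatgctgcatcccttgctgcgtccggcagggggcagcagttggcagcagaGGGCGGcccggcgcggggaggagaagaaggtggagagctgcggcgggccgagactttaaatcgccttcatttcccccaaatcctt
In order, these windows are chr1:45311288-45311537 (plus strand), chr2:27886175-27886424 (plus strand), chr1:90843972-90844221 (minus strand), chr9:20815068-20815317 (minus strand) and chr4:63215162-63215411 (plus strand). In GENCODE the Col27a1 gene begins upstream of its RefSeq start, at 63214004, so its window lies inside the GENCODE gene. The Col3a1 window held a single TATAAA, whose first base lay 117 bases before the start, and its GC content was 35.2%. The Col5a1 window had a GC content of 76.4% and held GGGCGG in 2 places. The Col5a3 window held 1 CCAAT and 2 GGGCGG, the Col27a1 window held 1 GGGCGG, and the Col6a3 window held none of these motifs. RefSeq had windows for 25 of the 31 collagen genes, 27 windows in all. GGGCGG was present in 17 of those 27 (63.0%) and in 32.7% of all 32851 promoter windows of the same length. CCAAT was present in 10 of the 27 (37.0%), against 33.8% of all windows, and TATAAA in 3 (11.1%), against 12.4% of all windows. These matches describe letters in the windows and say nothing of which factors bind them.

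Total counts ranged from 7468336 to 19868913 reads a library, and edgeR's filter on low counts kept 15176 genes for testing, 28 collagen genes among them. The design text names the liver, whereas the titles, the tissue label and the extraction protocol name IWAT. The adipocyte markers (Adipoq, Plin1, Fabp4, Lpl, Cidec, Pnpla2 and Slc2a4) summed to between 18444 and 48676 CPM (reads of a gene scaled by library size and TMM factor) in a library, and the hepatocyte markers (Alb, Apoa1, Ttr and Serpina1c) to between 55.6 and 7749 CPM, the highest value being in 1 elemental control library. The inguinal fat pad holds a lymph node, and the B cell gene Ms4a1 (which encodes CD20) split the libraries at a gap between 3.42 and 5.56 log2 CPM. By that gap 15 libraries had lymph node transcripts (46.9 CPM of Ms4a1 or more) and 9 had few (0.572 to 10.5 CPM). These are 5 and 1 libraries of elemental MR, 4 and 2 of elemental control, 2 and 4 of oxidized casein MR, and 4 and 2 of casein control. The 10 B cell markers, Ms4a1 among them, summed to between 302 and 967 CPM in the libraries with lymph node transcripts. In the libraries with few, called libraries without lymph node transcripts below, the sum was between 5.85 and 67.7 CPM. Ms4a1 averaged 5.50 ± 1.93 log2 CPM in elemental MR and 4.77 ± 2.36 in elemental control, and 3.46 ± 2.55 in oxidized casein MR and 4.78 ± 3.12 in casein control (SD, n = 6 each). Neither pair differed by an exact permutation test (2-sided, adjusted p = 0.799 for both), which does not show that lymph node content was equal. Skeletal muscle transcripts were high in elemental MR 2 and in elemental control 2. These split groups are groups of libraries, not diets, and each test below was made with and without a term for the presence of lymph node transcripts.

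Collagen transcripts summed to between 0.219% and 0.825% of a library's size after TMM scaling, which is not the plain share of its reads. Because a 3′ library gives about 1 read position per transcript, CPM was not divided by transcript length. On the scale of mean CPM over 24 libraries the order began with Col1a2 (912), Col3a1 (772) and Col1a1 (511), the chains of types I and III. Next came Col4a1 (397) and Col4a2 (324), the common chains of basement membrane, and Col5a3 (321), a chain of type V. Col6a3 followed at 225 CPM, Col15a1 at 184, Col6a2 at 106, Col5a1 at 89.2, Col6a1 at 87.2 and Col5a2 at 65.7. Col18a1, at 40.2 CPM, Col27a1, at 25.2, Col14a1, at 16.8, and Col16a1, at 11.4, closed the group above 10 CPM. The levels of the remaining 15 members averaged between 0.243 and 7.40 CPM. Neighbours in this order overlapped widely: the standard deviation over libraries was 45.5% of the mean for Col1a2 and 55.3% for Col3a1. Col7a1, Col26a1 and Col28a1 did not pass the filter on low counts and were not tested, at mean levels of 0.512, 0.243 and 0.579 CPM.

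Most collagens were lower in libraries with lymph node transcripts than in libraries without them. Summed over all members, collagens came to 0.309% ± 0.0766 of the TMM-scaled library size (SD) in the 15 libraries with lymph node transcripts. In the 9 without, the sum was 0.583% ± 0.177 (SD). The edgeR quasi-likelihood test with Benjamini-Hochberg adjustment, fitted with a mean for each diet and a term for lymph node presence, called 19 of 28 collagens lower and 2 higher in the libraries with lymph node transcripts. Over all genes tested, 22.9% were called lower and 22.9% higher by the same term. Fibrillar types had 7 of 9 members lower, basement membrane types 6 of 7 and other types 6 of 12. The same term called 7 of 7 adipocyte, 7 of 7 skeletal muscle and 6 of 7 endothelial markers lower. Of 10 progenitor and fibroblast markers it called 7 lower and 2 higher, and of 10 B cell markers 10 higher. Ms4a1, which set the split, is among those B cell markers, so its own call was fixed in advance. The libraries with high skeletal muscle transcripts, elemental MR 2 and elemental control 2, were both among those without lymph node transcripts. In bulk tissue, fewer cells of a type and less RNA per cell cannot be told apart, here or in the comparisons of diets.

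Col4a1 ranged from 225 to 446 CPM in libraries with lymph node transcripts, median 291, and from 420 to 802 CPM in libraries without them, median 562. The 2 ranges met only over a narrow stretch, and the fitted level was 1.88-fold lower with lymph node transcripts (log2 fold change -0.91 ± 0.11 SE, adjusted p = 1.25e-07). Col5a2 spanned 35.0 to 71.1 CPM with lymph node transcripts and 64.8 to 143 CPM without, and Col3a1 spanned 368 to 974 CPM with them and 542 to 1873 CPM without.

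Col6a4, which encodes a chain of type VI collagen in mice, ran the other way. It had between 13 and 66 reads in every library with lymph node transcripts, and 0 to 2 reads, 4 in all, in the libraries without, of which 6 had none. In CPM the levels were 1.05 to 5.26 in the libraries with lymph node transcripts and at most 0.147 in those without, so the 2 sets did not overlap (adjusted p = 8.52e-10). Col11a2, a chain of type XI, was the other gene called higher, at 0.896 ± 0.411 CPM in libraries with lymph node transcripts and 0.309 ± 0.215 CPM in those without (SD, n = 15 and 9, adjusted p = 0.0153). Col6a5 has no symbol in the deposited table and so falls outside the 31 genes. By its Ensembl identifier it had 11 to 84 reads in libraries with lymph node transcripts and 0 to 7 in those without.

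**Figure D1:**
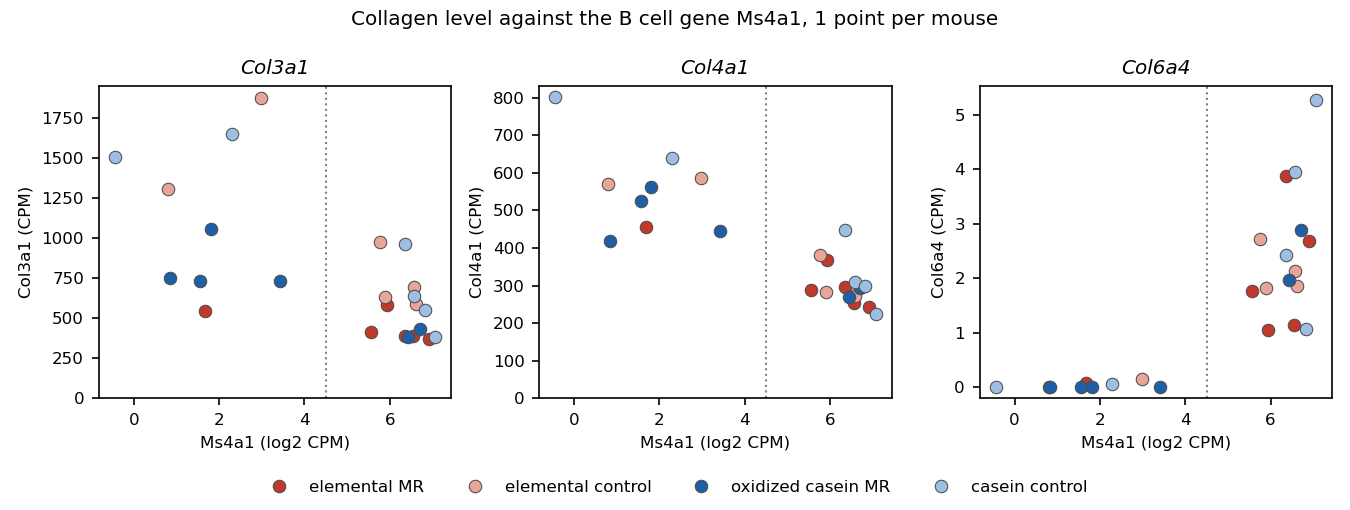
Levels of Col3a1, Col4a1 and Col6a4 (CPM, vertical axes) against the level of the B cell gene Ms4a1 (log2 CPM, horizontal axes) in 24 mice, coloured by diet, with a dotted line in the gap that splits the libraries. Col6a4 was between 1.05 and 5.26 CPM right of the line and at most 0.147 CPM left of it, while Col4a1 was between 225 and 446 CPM right of it and between 420 and 802 CPM left of it.

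Some collagens were lower under methionine restriction, and how many passed the test depended on the lymph node term. The mean MR effect is the average of the elemental and the casein log2 fold changes. Without the term it was negative in 25 of 28 collagens and in 61.9% of all genes tested, with a median of -0.49 over the collagens and -0.07 over all genes. Without the lymph node term, edgeR's quasi-likelihood test called 4 of 28 collagens lower, namely Col3a1, Col5a1, Col6a2 and Col6a3, and none higher. Over all genes, 1.76% were called lower and 5.23% higher. Those 4 calls were near the threshold (adjusted p between 0.0354 and 0.0455). The count was 0 when any 1 of 11 libraries was left out (elemental MR 1, 4, 5 or 6, elemental control 2 or 5, oxidized casein MR 3 or 5, or casein control 1, 4 or 5), and also without both muscle-rich libraries. DESeq2 called 5 lower and 1 higher, and limma voom called 0 lower and 1 higher.

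With the lymph node term, 11 of 28 collagens were lower and 1 was higher, and the 4 calls made without the term were among them. Over all genes, 5.82% were called lower and 6.96% higher with that term. By type, 5 of 9 fibrillar, 3 of 7 basement membrane and 3 of 12 other members were lower, and Col27a1, of the fibrillar type, was higher. This count lay between 12 and 14 whichever library was left out, was 13 by DESeq2 and 12 by limma voom, and was 11 without both muscle-rich libraries and casein control 5. The median estimate over the 28 collagens was -0.44 with the term and -0.49 without it, and the medians over all genes were -0.05 and -0.07.

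**Figure D2:**
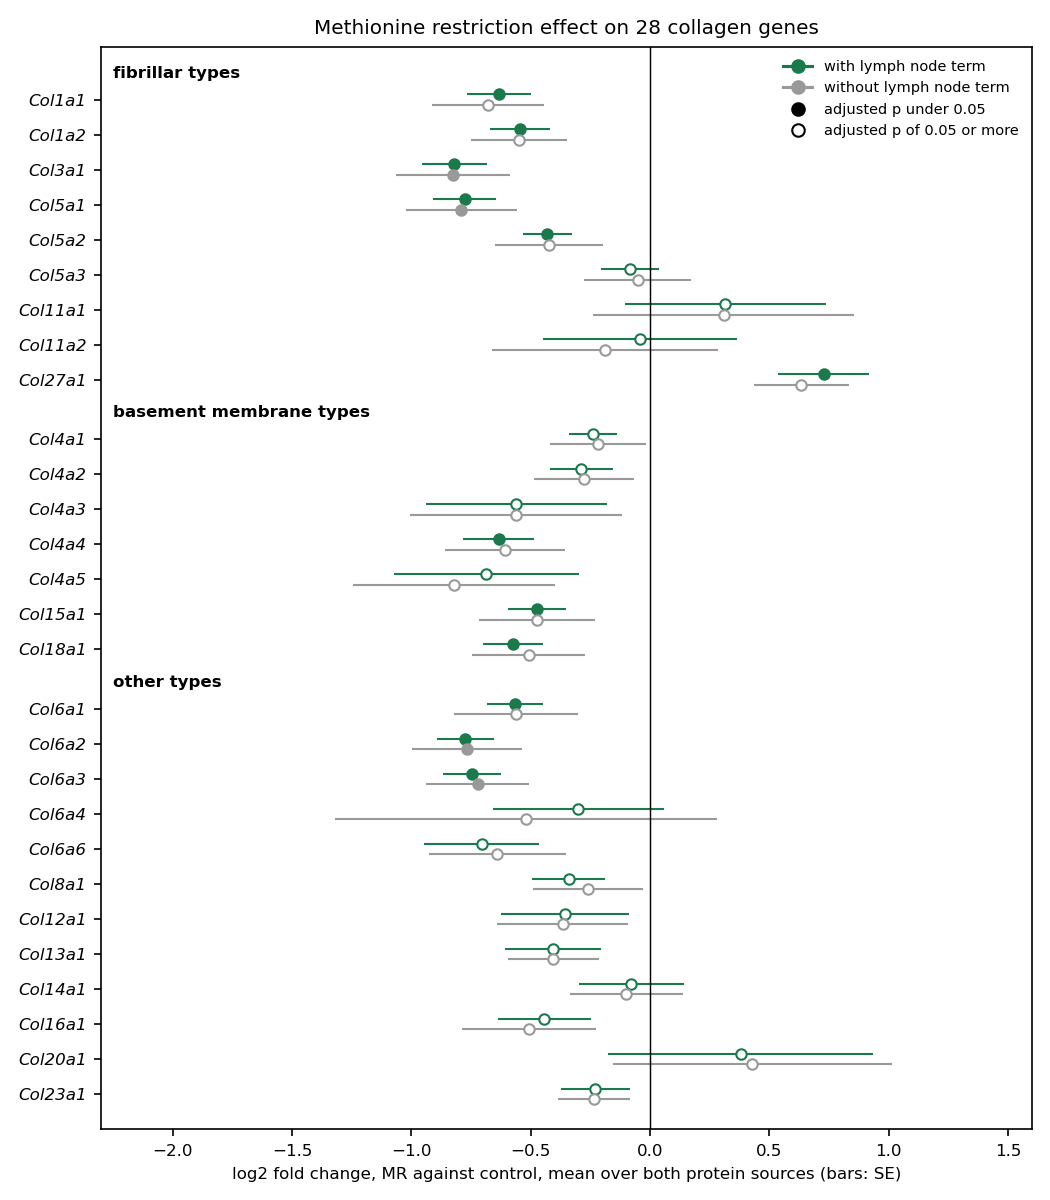
Mean MR effect (log2 fold change, MR against control, averaged over both protein sources, bars SE) on the 28 tested collagens by type, with the lymph node term in green and without it in grey. Filled points passed an adjusted p of 0.05. The estimates of the 2 models lay close together, the bars were shorter with the term for most genes, and Col27a1 was the only member called higher.

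Among the fibrillar collagens called lower, Col3a1 had the lowest mean effect, 1.77-fold lower with the lymph node term (-0.82 ± 0.13 SE, adjusted p = 0.00018). Col3a1 encodes the single chain of type III collagen, which shares fibers with type I in soft tissue. It had 368 CPM at the lowest, 399 at the median and 585 at the highest in elemental MR, against 590, 834 and 1873 CPM in elemental control. Every elemental MR mouse was below every elemental control mouse. In oxidized casein MR, Col3a1 had 383, 731 and 1059 CPM, against 380, 800 and 1649 CPM in casein control, and these 2 groups overlapped. Within the libraries without lymph node transcripts the casein pair did not overlap, at 730 to 1059 CPM in 4 oxidized casein MR mice and 1507 to 1649 CPM in 2 casein control mice. Within the libraries with them, values were 383 to 433 CPM in 2 oxidized casein MR mice and 380 to 961 CPM in 4 casein control mice. A gap between 4 and 2 mice can arise by chance, and the share of all genes with such a gap was not counted. Casein control 5 was 1 of the 2 control mice. Col1a2 overlapped in the same libraries, at 926 to 1236 CPM in oxidized casein MR and 1018 to 1827 CPM in casein control. With the lymph node term Col3a1 was 1.85-fold lower under elemental MR (-0.89 ± 0.19 SE, adjusted p = 0.0227) and 1.69-fold lower under oxidized casein MR (-0.75 ± 0.19 SE, adjusted p = 0.0164). Without the term the adjusted p values were 0.159 and 0.518.

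Col5a1 and Col5a2 encode chains of type V, a minor collagen that sits inside type I fibers and limits their width. Col5a1 had 39.7, 46.4 and 72.5 CPM (lowest, median and highest) in elemental MR, against 59.6, 91.6 and 185 CPM in elemental control. It had 53.5, 79.0 and 122 CPM in oxidized casein MR, against 50.0, 97.3 and 225 CPM in casein control. Both pairs overlapped, although both medians were lower under restriction. With the lymph node term, Col5a1 was 1.72-fold lower under elemental MR (-0.79 ± 0.19 SE, adjusted p = 0.0362) and 1.70-fold lower under oxidized casein MR (-0.77 ± 0.19 SE, adjusted p = 0.0118). Col5a2 had 35.0, 46.5 and 64.8 CPM in elemental MR, against 46.1, 58.7 and 114 CPM in elemental control. In oxidized casein MR it had 38.4, 73.2 and 92.6 CPM, against 36.9, 59.8 and 143 CPM in casein control. The casein medians thus ran opposite to the fitted effect with the lymph node term, which was 1.4-fold lower under oxidized casein MR (-0.49 ± 0.15 SE, adjusted p = 0.0417). More oxidized casein MR than casein control libraries were without lymph node transcripts (4 and 2 of 6).

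The 2 chains of type I, Col1a1 and Col1a2, passed the test for the mean MR effect but in neither pair alone. Col1a1 had 267, 284 and 443 CPM in elemental MR, against 353, 520 and 1141 CPM in elemental control, and 315, 485 and 669 CPM in oxidized casein MR, against 267, 483 and 1096 CPM in casein control. Col1a2 had 487, 584 and 719 CPM in elemental MR, against 637, 933 and 1993 CPM in elemental control, and 616, 962 and 1236 CPM in oxidized casein MR, against 539, 967 and 1827 CPM in casein control. In the elemental pair the ranges of both genes overlapped only at their ends, and in the casein pair the medians of each gene were nearly equal. Averaged over both sources and with the lymph node term, Col1a1 was 1.55-fold lower (-0.63 ± 0.13 SE, adjusted p = 0.00185) and Col1a2 1.46-fold lower (-0.54 ± 0.13 SE, adjusted p = 0.00372). Without the term neither passed, with adjusted p of 0.0841 and 0.107.

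Of the fibrillar collagens not called lower, Col27a1 was higher, and Col5a3, Col11a1 and Col11a2 passed no test of diet. Col27a1 encodes type XXVII, a fibrillar collagen known best from cartilage. It had 24.2, 30.2 and 41.4 CPM in elemental MR, against 13.9, 21.4 and 37.3 CPM in elemental control, and 12.4, 29.9 and 48.7 CPM in oxidized casein MR, against 7.5, 18.3 and 25.2 CPM in casein control. Both pairs overlapped, with the higher median under restriction in each. With the lymph node term it was 2.0-fold higher under oxidized casein MR (1.0 ± 0.29 SE, adjusted p = 0.0344) and 1.66-fold higher in the mean MR effect (0.73 ± 0.19 SE, adjusted p = 0.0128), but the elemental pair alone did not pass (adjusted p = 0.498). Without the term the mean effect did not pass (adjusted p = 0.0565). The term fits 1 lymph node shift for all diets. In libraries with lymph node transcripts, Col27a1 averaged 26.5 CPM in 2 oxidized casein MR mice and 21.0 CPM in 4 casein control mice. In libraries without them it averaged 31.3 CPM in 4 oxidized casein MR mice and 9.96 CPM in 2 casein control mice, casein control 5 among these.

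Col5a3, a type V chain known from fat and muscle, was looked at more closely after its values were seen. It had 162, 237 and 450 CPM in elemental MR, against 221, 287 and 578 CPM in elemental control, and 209, 371 and 469 CPM in oxidized casein MR, against 142, 273 and 555 CPM in casein control. Its mean MR effect with the lymph node term was -0.08 ± 0.12 SE on the log2 scale (adjusted p = 0.729). Col11a1 and Col11a2, chains of type XI, averaged 1.01 and 0.676 CPM, with mean MR effects of 0.32 ± 0.42 SE and -0.04 ± 0.41 SE with the term (adjusted p = 0.701 and 0.966).

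**Figure D3:**
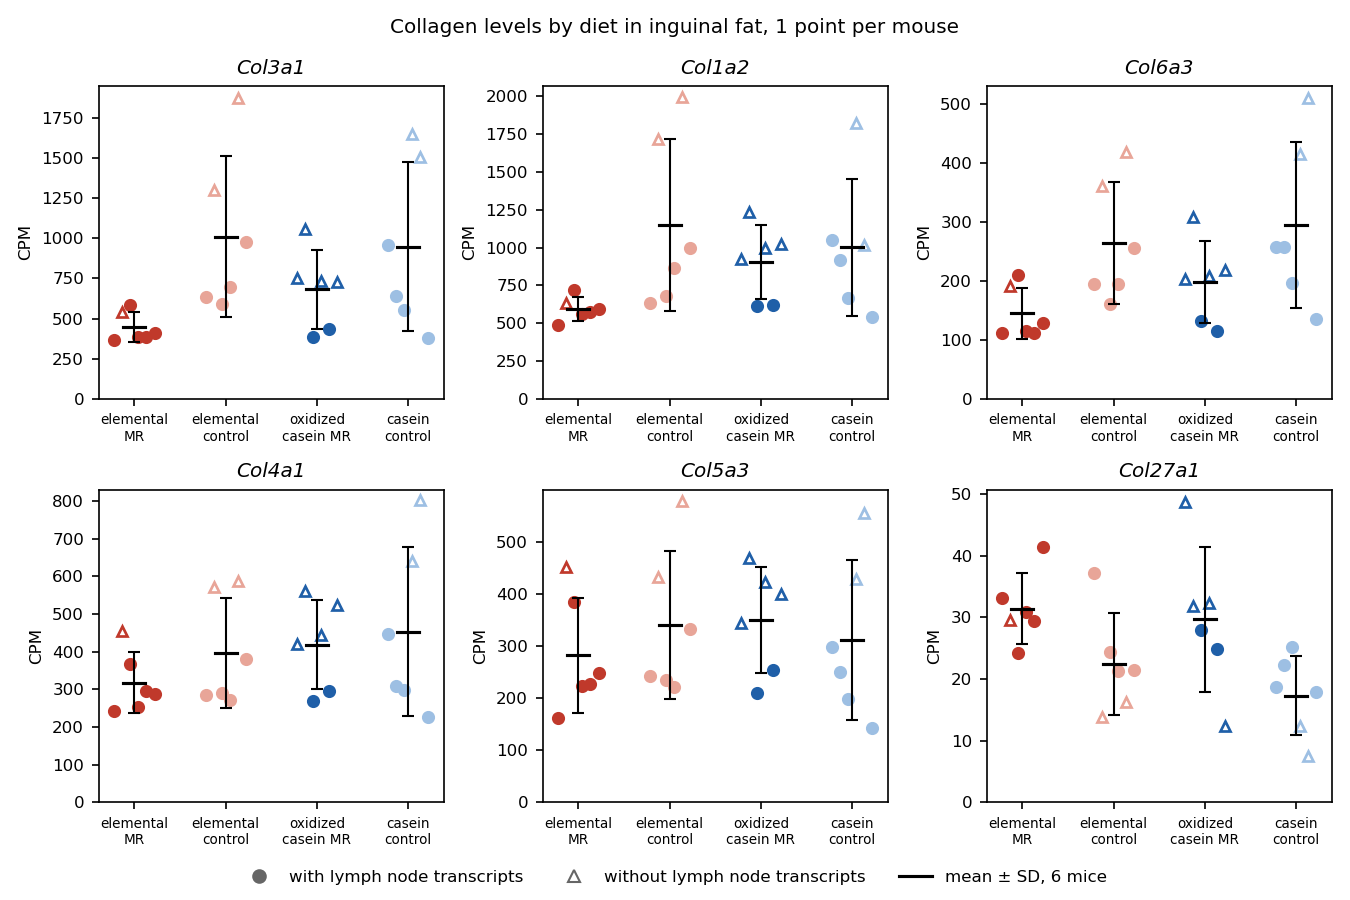
Levels of 6 collagens (CPM, vertical axes) in each of 24 mice by diet, with filled circles for libraries with lymph node transcripts, open triangles for those without, and black marks for mean ± SD of 6 mice. All 6 elemental MR mice were at or below 585 CPM of Col3a1 and all 6 elemental control mice at or above 590 CPM, while Col27a1 had its higher median under restriction in both pairs.

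All 7 basement membrane collagens had a negative mean MR effect with the lymph node term, and 3 of them passed the test. The sign was not particular to this class: 7 of 9 fibrillar and 11 of 12 other members were negative too, as were 59.8% of all genes. Col4a1 and Col4a2, whose products join as the common type IV trimer and whose genes lie head to head on chromosome 8, passed no test of diet. Col4a1 had 242, 292 and 456 CPM in elemental MR, against 271, 336 and 587 CPM in elemental control, and 269, 432 and 562 CPM in oxidized casein MR, against 225, 377 and 802 CPM in casein control. Its mean MR effect with the lymph node term was -0.24 ± 0.10 SE (adjusted p = 0.121). Col4a2 had 187, 238 and 349 CPM in elemental MR, against 211, 294 and 439 CPM in elemental control, and 212, 348 and 437 CPM in oxidized casein MR, against 185, 338 and 862 CPM in casein control. The mean effect on Col4a2 was -0.29 ± 0.13 SE (adjusted p = 0.165).

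Col4a4, a chain of the less common type IV trimers, was lower in the mean effect, by 1.55-fold with the lymph node term (-0.63 ± 0.15 SE, adjusted p = 0.00444). It had 1.79, 3.26 and 4.79 CPM in elemental MR, against 3.54, 5.30 and 11.1 CPM in elemental control, and 3.26, 7.60 and 9.29 CPM in oxidized casein MR, against 3.59, 6.75 and 13.3 CPM in casein control. Here too the casein medians ran opposite to the fitted effect. Col4a3 and Col4a5, at mean levels of 0.658 and 0.897 CPM, had negative estimates that passed no test.

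Col15a1 and Col18a1 encode types XV and XVIII, proteoglycan collagens at the edge of basement membranes, and the end of type XVIII is released as endostatin. Col15a1 had 94.9, 120 and 233 CPM in elemental MR, against 139, 174 and 338 CPM in elemental control, and 99.8, 179 and 226 CPM in oxidized casein MR, against 93.2, 151 and 473 CPM in casein control. Col18a1 had 20.9, 25.7 and 50.8 CPM in elemental MR, against 24.3, 44.7 and 71.6 CPM in elemental control, and 21.8, 41.2 and 56.0 CPM in oxidized casein MR, against 22.6, 40.2 and 95.7 CPM in casein control. All 4 pairs of ranges overlapped. With the lymph node term the mean effect was 1.39-fold lower for Col15a1 (-0.48 ± 0.12 SE, adjusted p = 0.00926) and 1.49-fold lower for Col18a1 (-0.57 ± 0.13 SE, adjusted p = 0.00276). Both also passed in the casein pair, with adjusted p of 0.0422 and 0.0273, and not in the elemental pair, with 0.371 and 0.204. As for Col5a2, their casein medians were higher under restriction, while the fitted effect was lower. The 3′ end of Col18a1 overlaps that of the neighbouring gene Slc19a1 on the other strand, and the strand setting of the counting is not known here.

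The genes for the 3 main chains of type VI were all lower in the mean MR effect with the lymph node term. Col6a1, Col6a2 and Col6a3 encode the chains that assemble into the beaded filaments around adipocytes, and a fragment of the Col6a3 product is known as endotrophin. Col6a3 had 111, 122 and 209 CPM in elemental MR, against 160, 225 and 419 CPM in elemental control, and 115, 206 and 309 CPM in oxidized casein MR, against 135, 257 and 510 CPM in casein control. With the lymph node term it was 1.80-fold lower under oxidized casein MR (-0.85 ± 0.18 SE, adjusted p = 0.00346) and 1.68-fold lower in the mean effect (-0.75 ± 0.12 SE, adjusted p = 0.000163), and the elemental pair did not pass (adjusted p = 0.0704).

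Col6a2 had 57.0, 61.1 and 108 CPM in elemental MR, against 83.8, 104 and 220 CPM in elemental control, and 53.0, 90.5 and 112 CPM in oxidized casein MR, against 56.5, 116 and 272 CPM in casein control. It had the smallest adjusted p of any collagen for a diet, being 1.98-fold lower under oxidized casein MR (-0.99 ± 0.17 SE, adjusted p = 0.00116) and 1.71-fold lower in the mean effect (-0.77 ± 0.12 SE, adjusted p = 9.27e-05). Within the libraries without lymph node transcripts it was at 86.6 to 112 CPM in 4 oxidized casein MR mice and at 188 to 272 CPM in 2 casein control mice. The highest of these was casein control 5, and a gap between so few mice can arise by chance. Col6a1 had 44.5, 57.4 and 115 CPM in elemental MR, against 54.9, 83.4 and 197 CPM in elemental control, and 47.4, 79.1 and 103 CPM in oxidized casein MR, against 47.6, 77.5 and 191 CPM in casein control. It was 1.59-fold lower under oxidized casein MR with the lymph node term (-0.67 ± 0.17 SE, adjusted p = 0.0135) and 1.48-fold lower in the mean effect (-0.56 ± 0.12 SE, adjusted p = 0.00159), although its casein medians were nearly equal.

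Of the remaining other types, none passed a test of diet. Col14a1, a collagen that binds to the surface of fibers, had 8.70, 11.5 and 23.0 CPM in elemental MR, against 8.87, 16.8 and 34.6 CPM in elemental control, and 13.8, 18.2 and 30.2 CPM in oxidized casein MR, against 7.07, 16.1 and 24.1 CPM in casein control. Its mean effect with the term was -0.08 ± 0.22 SE (adjusted p = 0.869). The mean effects of Col6a4, Col6a6, Col8a1, Col12a1, Col13a1, Col16a1, Col20a1 and Col23a1 lay between -0.71 and 0.38 on the log2 scale.

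**Figure D4:**
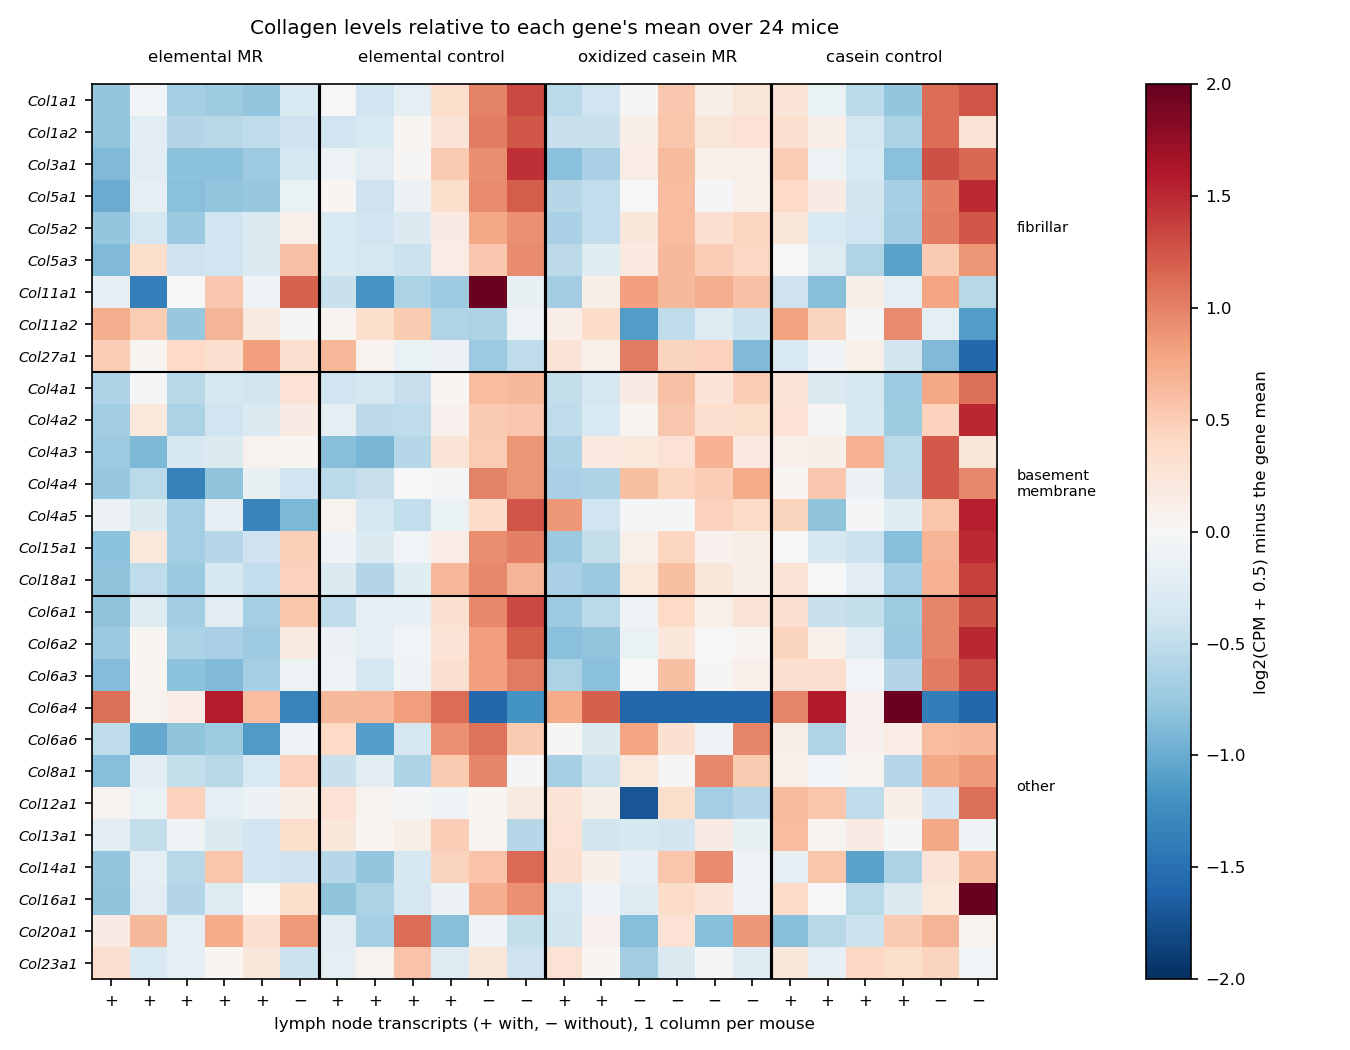
Level of each of the 28 tested collagens in each of 24 mice as log2(CPM + 0.5) minus the mean of the gene, with columns grouped by diet and then by lymph node transcripts (+ with, − without) and rows by type. Columns without lymph node transcripts were mostly red and elemental MR columns mostly blue, while Col6a4 had the opposite pattern to most rows.

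Each pair of diets was also tested alone. Elemental MR against elemental control gave 0 collagen calls without the lymph node term by edgeR's quasi-likelihood test, with 9 of 28 at an unadjusted p under 0.05 (10.2% of all genes), 3 calls by DESeq2 and 0 by limma voom. Over all genes 0.244% were called by edgeR's test. The median log2 fold change was -0.54 over the 28 collagens and -0.02 over all genes. With the term 2 collagens were lower, Col3a1 and Col5a1, where 0.409% of all genes were called lower and 0.685% higher. That count lay between 0 and 7 when single libraries were left out. It was 0 without elemental MR 2, elemental MR 4, elemental control 5 or elemental control 6, the last being the library with the highest hepatocyte sum. It was 1 without elemental MR 1, elemental MR 6 or elemental control 4, 5 without oxidized casein MR 1, 6 without elemental control 1, elemental control 3 or casein control 6, and 7 without elemental MR 3.

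Oxidized casein MR against casein control gave 0 calls without the term by edgeR's quasi-likelihood test, which called 3.82% of all genes. By that test 2 of 28 were at an unadjusted p under 0.05 (16.1% of all genes), and DESeq2 and limma voom gave 0 calls. With the term 8 collagens were lower (Col3a1, Col5a1, Col5a2, Col15a1, Col18a1, Col6a1, Col6a2 and Col6a3) and Col27a1 was higher. Over all genes 2.84% were called lower and 4.54% higher. That count of 9 became 3 without casein control 5, 5 without casein control 1 and 11 without casein control 3. When each of the 24 libraries was left out in turn, Col27a1 lost its call 8 times, Col5a2 and Col15a1 7 times each and Col18a1 3 times. Col3a1, Col5a1 and Col6a1 lost theirs 1 time each, and Col6a2 and Col6a3 0 times. Casein control 5 stood apart in several members: it had 46.2 CPM of Col16a1, a collagen of fiber surfaces, and 862 CPM of Col4a2, the highest of 24 in both, and a ratio of Col1a1 to Col1a2 of 1.08.

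The casein and elemental effects of restriction were then compared with each other. The difference was called for 0 of 28 collagens and 0% of all genes in both models, with 1 collagen at an unadjusted p under 0.05 in each (3.33% of all genes without the term and 3.02% with it) and 0 collagens called by DESeq2 or limma voom. The difference for Col3a1 was 0.13 ± 0.28 SE on the log2 scale with the term, casein minus elemental. A difference that misses the threshold does not show that the 2 sources acted alike. Among the control diets, casein control against elemental control gave 0 collagen calls in both models and 0 collagens at an unadjusted p under 0.05, which 12.6% of all genes reached without the term and 16.9% with it. Of all genes 0.659% were called without the term and 2.06% with it. Oxidized casein MR against elemental MR gave 0 collagen calls and 0% of all genes in both models, with 4 collagens at an unadjusted p under 0.05 without the term and 1 with it (6.98% and 6.96% of all genes). DESeq2 and limma voom called 0 collagens in these 2 comparisons as well.

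Ratios of 2 collagens within a library set aside what scales both alike, and were chosen after values were seen, so they are given with no test. The ratio of Col5a1 to Col5a3, which compares 2 chains of type V, was 0.161 at the lowest, 0.194 at the median and 0.245 at the highest in elemental MR, against 0.254, 0.326 and 0.355 in elemental control. It was 0.186, 0.227 and 0.260 in oxidized casein MR, against 0.313, 0.356 and 0.406 in casein control. Restricted and control mice did not overlap for either protein source. The libraries with lymph node transcripts spanned 0.181 to 0.358 and those without spanned 0.161 to 0.406.

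The ratio of Col3a1 to Col4a1, fiber against basement membrane, was 1.19, 1.47 and 1.59 in elemental MR, against 2.03, 2.42 and 3.19 in elemental control, with no overlap. It was 1.39, 1.56 and 1.89 in oxidized casein MR, against 1.69, 1.97 and 2.58 in casein control, where the ranges overlapped. For Col6a3 to Col4a1 the values were 0.376, 0.452 and 0.568 in elemental MR, against 0.551, 0.676 and 0.720 in elemental control. They were 0.389, 0.477 and 0.55 in oxidized casein MR, against 0.574, 0.642 and 0.834 in casein control. The casein pair did not overlap in that ratio and the elemental pair overlapped slightly.

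Ratios were also taken for chains that join in 1 trimer. The ratio of Col4a2 to Col4a1 was 0.811 ± 0.0769 in elemental MR and 0.799 ± 0.0790 in elemental control, and 0.790 ± 0.0473 in oxidized casein MR and 0.863 ± 0.151 in casein control (SD, n = 6 each). The ratio of Col1a1 to Col1a2 was 0.535 ± 0.0626 in elemental MR and 0.565 ± 0.0847 in elemental control, and 0.526 ± 0.0235 in oxidized casein MR and 0.595 ± 0.238 in casein control. Casein control 5, at 1.08, lay apart from the other 5 casein control mice, at 0.457 to 0.544.

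**Figure D5:**
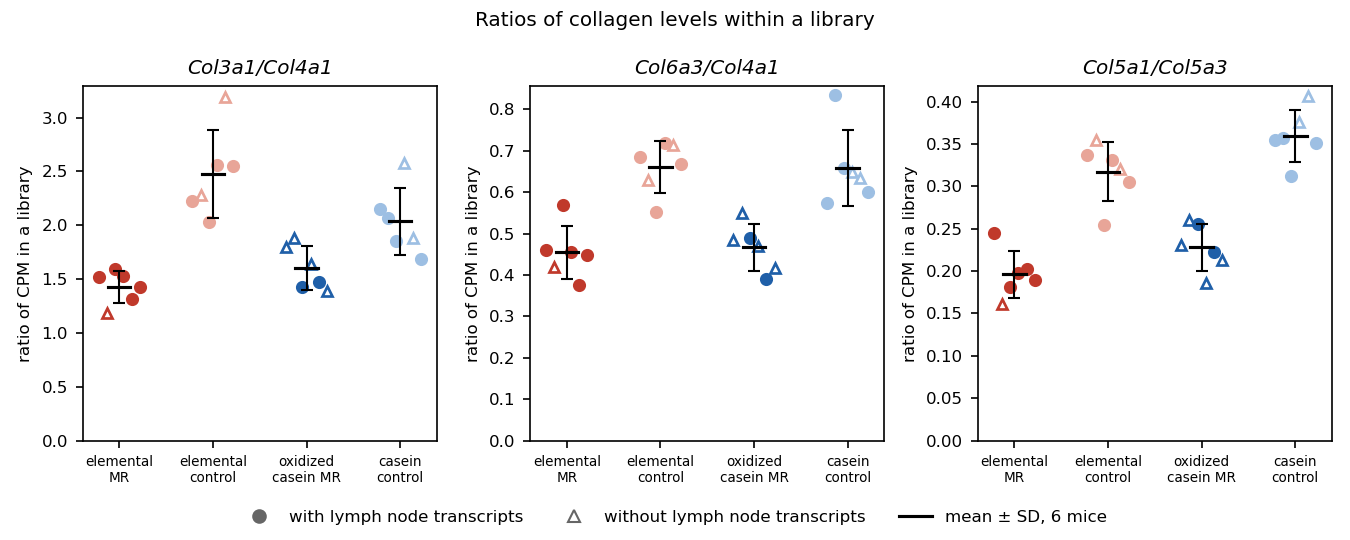
Ratio of the CPM of 2 collagens within a library (vertical axes, no unit) for Col3a1/Col4a1, Col6a3/Col4a1 and Col5a1/Col5a3 in 24 mice by diet, with symbols for lymph node transcripts and mean ± SD of 6 mice. For Col5a1/Col5a3 the restricted mice were between 0.161 and 0.260 and the control mice between 0.254 and 0.406, with no overlap within either protein source.

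Other genes of collagen biology were counted in the same test. These lists, and the cell type lists further on, were chosen with earlier results of these data known, so their counts are description only. The counts that follow are for the mean MR effect with the lymph node term by edgeR's quasi-likelihood test, which called 5.82% of all genes lower and 6.96% higher, at a median log2 fold change of -0.05. Of 27 tested genes of collagen folding, cutting and crosslinking, 8 were lower and 0 higher, with a median log2 fold change of -0.26. They included Loxl2, a lysyl oxidase that crosslinks collagen (-0.63 ± 0.10 SE, adjusted p = 9.44e-05), Adamts2, which removes the amino-terminal propeptide (-0.64 ± 0.14 SE, adjusted p = 0.00324), Pcolce, an enhancer of the enzyme that removes the other end (-0.62 ± 0.14 SE, adjusted p = 0.00352), and Colgalt1, which adds galactose to collagen (-0.28 ± 0.06 SE, adjusted p = 0.00273). Colgalt1 was the 1 gene of that list that also passed without the term.

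Of 7 small proteoglycans that coat fibers, 4 were lower, namely Aspn, Ogn, Bgn and Lum. Of 8 collagen receptors, 5 were lower and 0 higher, Mrc2, which takes up collagen for breakdown, having the widest change (-1.11 ± 0.27 SE, adjusted p = 0.0074). Of 11 basement membrane partners, 6 were lower and 0 higher, among them the laminin chains Lamb2, Lama2 and Lamc1 and the nidogen Nid2 (-0.83 ± 0.16 SE, adjusted p = 0.000698). Of 16 genes of the TGF-β pathway, a known driver of collagen expression, 2 were lower (Smad7 and Ltbp4) and 0 higher, with a median of -0.15, and so small a count beside 5.82% of all genes is not read as a result about the pathway. No gene of these 4 lists passed without the term.

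Markers of other cell types were counted in the same way, beside the 5.82% of all genes called lower and 6.96% called higher. Of the 10 markers of adipose progenitors and fibroblasts, 6 were lower and 0 higher with the term, at a median log2 fold change of -0.43. Dpt (dermatopontin, a matrix protein of fibroblasts) had a mean MR effect of -0.96 ± 0.11 SE (adjusted p = 8.04e-06), and Cd34, a surface marker of progenitors, had a mean MR effect of -0.62 ± 0.12 SE (adjusted p = 0.000566); both also passed without the term. The summed level of the 10 was 386, 431 and 647 CPM in elemental MR (lowest, median and highest), against 583, 706 and 1246 CPM in elemental control, and 540, 691 and 960 CPM in oxidized casein MR, against 667, 918 and 1450 CPM in casein control. Smooth muscle and pericyte markers had 3 of 7 lower (Pdgfrb, Rgs5 and Acta2), endothelial markers 1 of 7 (Pecam1), and lymph node stroma markers 1 of 5 (Il7), where a single call in a list is not read as a result about the cell type. Adipocyte markers had 2 of 7 higher (Pnpla2 and Slc2a4) and 0 lower. None of 10 B cell, 7 skeletal muscle, 3 epithelial or 4 hepatocyte markers passed, with 1 of these at an unadjusted p under 0.05. The part of these cell types in the collagen values was not tested.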

How the data were processed

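The authors deposited raw read counts per gene and the same counts divided by median-of-ratios size factors, a normalized signal that was used here only for its gene symbols. R 3.4.3, DESeq2 1.18.1 and the builds GRCm38 and mm10 are named per the submitters' processing notes, whereas the aligner, counter and strandedness were facts not given in the sources used here. Reads were 50 bases long, per the labels' protocols. No molecular identifiers are mentioned, so the counts are of reads, not of molecules.

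From the deposited counts, edgeR 4.0.16 (in R 4.3.3) fitted 1 mean for each of the 4 diets over all 24 libraries, with filterByExpr, TMM factors and a robust quasi-likelihood F test (2-sided, Benjamini-Hochberg over 15176 genes, threshold 0.05). The filter removed 1645 of 16821 genes. Each SE given with a log2 fold change was derived from that test, as the absolute log2 fold change divided by the square root of F. A second model added the presence of lymph node transcripts, split at 4.49 log2 CPM of Ms4a1 (prior count 2). Levels are TMM-scaled CPM. Alternatives were RLE factors, no filter, DESeq2 1.42.0, limma 3.58.1 voom, Ms4a1 as a covariate, subsets of libraries and leaving out each library. The model without the lymph node term was tried on simulated counts with known fold changes, the same dispersion for all genes and no lymph node difference. The model with that term was not simulated. Named genes were a set of common collagens and any further collagen past the threshold, and of other lists at most 4 genes by p. Collagen coordinates and overlaps come from GENCODE, promoters from RefSeq. The collagens, their classes and the gene lists were chosen with earlier results of these data known. P-values without the lymph node term weigh differences against the spread between mice of a diet. Those with the term weigh them against the spread left after it was fitted.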

Additional observations from a re-analysis of the deposited data

Results flagged for a closer look

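Of 84 groups of 6 mice checked (16 named collagens and 5 ratios on each of 4 diets), 3 had 1 mouse set apart from the other 5 by a gap wider than Dixon's 95% critical value for the gap as a share of the range. Chance alone sets apart about 1 group in 20. Col18a1 was 50.8 CPM in elemental MR 2, a muscle-rich library without lymph node transcripts, and between 20.9 and 29.1 CPM in the other 5 elemental MR mice. The ratio of Col6a3 to Col4a1 was 0.834 in casein control 2 and between 0.574 and 0.660 in the other 5 casein control mice. The ratio of Col1a1 to Col1a2 was 1.08 in casein control 5 and between 0.457 and 0.544 in the other 5 casein control mice.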

How the results depend on the processing

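The count of 12 collagens for the mean MR effect with the lymph node term lay between 11 and 14 in every alternative run. The lymph node count of 21 lay between 20 and 23 over left-out libraries, and the difference between the MR effects and both comparisons between protein sources stayed at 0 calls over left-out libraries in both models. The counts for the following comparisons moved. Without the term, elemental MR against elemental control gave 3 calls by DESeq2 and 4 with the Ms4a1 level as covariate, and 0 to 1 over left-out libraries. Oxidized casein MR against casein control gave 7 with that covariate, 6 in only the libraries without lymph node transcripts, and 0 to 1 over left-out libraries. The mean MR effect gave 12 with that covariate, 1 by limma voom, 2 in only the libraries with lymph node transcripts, 9 in only those without, 0 without both muscle-rich libraries, with or without casein control 5, and 0 to 6 over left-out libraries. With the term, the elemental pair gave 6 by DESeq2, 4 by limma voom, 0 without both muscle-rich libraries and casein control 5, and 0 to 7 over left-out libraries. The casein pair gave 4 without those 3 libraries and 3 to 11 over left-out libraries. The cause was not tested in any of these.
Estimates that changed sign were small and uncalled. For Col5a3 they were 0.0037 (limma voom), 0.0072 (without the 3 libraries) and -0.134 to 0.0703 (left-out libraries) in the mean effect, -0.000196 (Ms4a1 covariate), -0.21 (only without lymph node transcripts) and -0.0974 (lymph node term) in the casein pair, and -0.249 to 0.031 in the elemental pair with the term. For Col14a1 they were 0.0226 in the elemental pair and 0.228 in the mean effect (only with lymph node transcripts), -0.0114 in the casein pair (only without), 0.0194 in the mean effect without the 3 libraries, and -0.217 to 0.0401, or -0.212 to 0.0249 with the term, over left-out libraries. Without the 3 libraries the casein pair gave 0.0384 for Col5a2, 0.0565 for Col15a1, 0.122 for Col4a1 and 0.109 for Col4a2. Over left-out libraries it gave -0.366 to 0.0421 for Col5a2, -0.507 to 0.0612 for Col15a1, -0.277 to 0.11 for Col1a2, -0.252 to 0.128 for Col4a1 and -0.416 to 0.117 for Col4a2.
The difference in Ms4a1 between casein control and elemental control was -0.0224 at a prior count of 0.5 and -0.79 to 1.05 over left-out libraries, and that between elemental MR and elemental control was -0.0717 to 1.49. The removal of the 3 libraries and the closer look at Col5a3 were chosen after seeing the data. No paired analysis was possible because the labels give no replicate numbers that pair mice across diets. Depth limits the members below 1 CPM, some of which had 0 reads in single libraries.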
